A study of Oryza sativa with 6 samples.

Results

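Calmodulins, calmodulin-like (CML) proteins and calcium-dependent protein kinases (CPKs) were followed in flag leaves, the leaves just under the panicle, of rice (Oryza sativa). The members were all genes of the Affymetrix Rice Genome Array whose symbol or RefSeq synonym is CAM, CML, CPK or CDPK with a number, with or without Os in front. This gave 46 of 17905 genes, in 26 calcium sensors (3 calmodulins and 23 CML proteins) and 20 kinases. The 3 mutant arrays came from the japonica cultivar Zhonghua11 with an insertion of T-DNA, which Agrobacterium puts into plant chromosomes, in OsSLAC7 (Os01g0385400), and the 3 wild type arrays from Zhonghua11 without it. All plants were untreated and were raised in a greenhouse before they went to the field. The labels name a single mutant genotype and number the arrays within a genotype as biological replicates. They give neither the number of insertion lines, nor the zygosity, nor the number of plants behind an array, and the p-values cover only the spread among the replicates as sampled.

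Calcium ions rise for a short time in the plant cell when it is wounded, dried, chilled or attacked, and proteins that bind calcium pass the change on. Calmodulins and CML proteins hold calcium in loops called EF-hands and have no enzyme activity of their own: they change shape and bind other proteins. CPKs join a calmodulin-like domain to a protein kinase in 1 chain, so that they sense calcium and phosphorylate targets such as ion channels, transcription factors and the NADPH oxidases that make reactive oxygen. In leaves of several plants CPKs act in guard cells, where SLAC1 of Arabidopsis, the anion channel after which this gene family is named, is among their substrates.

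Levels are log2 RMA values of a gene's probe set with the highest mean over the 6 arrays, so that 1 unit is a doubling, and a difference is the mutant mean minus the wild type mean. A gene was called when limma's adjusted p over all 17905 genes was below 0.05. No probe set carried the name of OsSLAC7, so its transcript could not be used to check the labels. Within groups the arrays correlated at 0.992 to 0.997. Mutant replicate 1 stood apart: its genes lay 0.12 above their means over the 6 arrays, against 0.03 and 0.01 in mutant replicates 2 and 3 and -0.07 to -0.03 in the wild type arrays. Of 10 leaf mesophyll markers matched by name, 9 had levels of 5.93 or more on every array, up to 14.33. The other, RBCS1, lay between 2.35 and 2.68.

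Kinase transcripts were more often higher than lower in mutant leaves, and sensor transcripts went both ways. Of the 20 kinases 6 rose (30.0%), 1 fell and 13 did not pass. Of the 26 sensors 2 rose (7.69%), 3 fell (11.5%) and 21 did not pass. Among all genes 21.0% rose and 6.32% fell, and the difference between the classes was not tested. Together 12 of 46 members (26.1%) passed, against 27.3% of all genes. The median difference was 0.20 for the kinases, -0.10 for the sensors and 0.10 for all genes. With each array centred on the median of its genes, the kinase median turned to -0.02, while that of the sensors was -0.32 and that of all genes -0.12. In that fit 3 kinases rose and 2 fell, and 1 sensor rose and 14 fell, while 10.1% of all genes rose and 22.0% fell. The centring moved the median of all genes by -0.21. Relative to it the kinases stood 0.10 higher and the sensors 0.20 lower, the same as before centring. Centring subtracts the same amount from every gene of an array, so these distances could not change and are no further test.

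**Figure D1:**
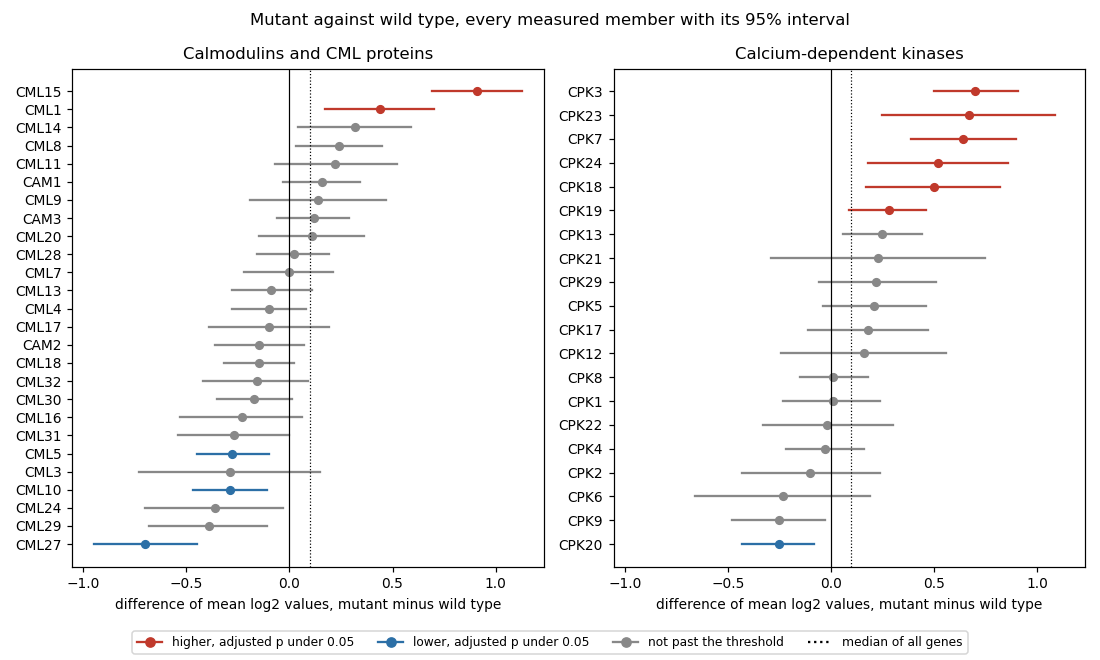
Mean log2 level of mutant minus that of wild type leaves for the 26 sensors and the 20 kinases, each with its 95% confidence interval from limma. Red genes were called higher, blue genes lower and grey genes did not pass; the dotted line is the median of all genes, 0.10. CML15 at 0.91 and CML27 at -0.70 lie at the ends of the sensors, CPK3 at 0.70 and CPK20 at -0.25 at the ends of the kinases.

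Among the sensors, CML15 (LOC4338633) rose most, by 0.91 (SE 0.09), or 1.88-fold, with limma adjusted p = 0.000662. It had levels of 7.18, 7.05 and 6.94 on the mutant arrays, against 6.09, 6.27 and 6.09 on the wild type arrays. The lowest mutant array lay 0.67 above the highest wild type array, and this call held under all 15 alternatives. CML1 (LOC4327351, also OsCAM61), a calmodulin-like protein with a long tail that in rice carries a lipid anchor, rose by 0.44 (SE 0.11; adjusted p = 0.0262). Its levels were 9.69, 9.63 and 9.39 on the mutant arrays, against 9.03, 9.30 and 9.07 in wild type. Here the gap between the groups was small, and 9 of the 15 alternatives kept the call, with adjusted p between 0.0023 and 0.134. It was lost without mutant replicate 1 or 2 or without wild type replicate 1 or 3.

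The sensor that fell most was CML27 (LOC4332731), by 0.70 on the log2 scale (SE 0.11; adjusted p = 0.00333), to 0.615 of the wild type level. It had 10.36, 10.57 and 10.19 on the mutant arrays, against 11.03, 11.15 and 11.05 on the wild type arrays. All mutant arrays lay below all wild type arrays, and the call held under all 15 alternatives. A dimmer probe set of CML27, with a mean level of 4.88, differed by -0.08 (SE 0.10; adjusted p = 0.612 in a fit over all probe sets), so the 2 probe sets of this gene disagree in size. CML10 (LOC4325762) had 11.52, 11.40 and 11.46 in mutant leaves, against 11.67, 11.81 and 11.78 in wild type leaves. It fell by 0.29 (SE 0.08; adjusted p = 0.0280), and 8 of 15 alternatives kept this call. CML5 (LOC4352729) had 6.19, 6.24 and 6.20 in mutant leaves, against 6.43, 6.46 and 6.57 in wild type leaves. It fell by 0.28 (SE 0.07; adjusted p = 0.0300), and 7 of 15 alternatives kept the call. The groups did not overlap in either gene, but the second probe set of each differed less. In a fit over all probe sets it gave -0.14 (SE 0.12) for CML10 and -0.05 (SE 0.14) for CML5. Its mean level was 5.42 for CML5 but only 2.49 for CML10, so it is dim there. In that fit the probe sets used had limma adjusted p = 0.0832 for CML10 and 0.0932 for CML5. Both calls were lost without mutant replicate 3 or without wild type replicate 2 or 3, that of CML10 also without mutant replicate 2 and that of CML5 without mutant replicate 1.

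The 3 calmodulin genes did not pass. CAM2 (LOC4339172) had 11.48, 11.43 and 11.24 in mutant leaves, against 11.43, 11.62 and 11.54 in wild type leaves, and its groups overlap. CAM3 (LOC4326903) had 11.45, 11.57 and 11.42 on the mutant arrays, against 11.32, 11.41 and 11.36 on the wild type arrays. Its mutant arrays were all higher, by a margin of 0.01. The differences were -0.15 (95% interval -0.36 to 0.07) for CAM2, 0.12 (-0.06 to 0.29) for CAM3 and 0.16 (-0.03 to 0.34) for CAM1 (LOC4324384). The intervals exclude changes as large as that of CML15 or CML27, not small ones. RefSeq lists CAM1-1, CAM1-2 and CAM1-3 as names of the single CAM1 entry, and calmodulin genes are close copies of each other, so these probe sets may read more than 1 of them.

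The other 18 CML genes did not pass either. CML29 was nearest to the threshold at -0.39 (SE 0.12; adjusted p = 0.0510), and its mutant arrays, at 10.23 to 10.68, lay below the wild type arrays, at 10.81 to 10.99. It was called lower in 8 of 15 alternatives. Below 0 lay CML24 (-0.36), CML3 (-0.29), CML31 (-0.27), CML16 (-0.23), CML30 (-0.17), CML32 (-0.16), CML18 (-0.15), CML4 (-0.10), CML17 (-0.10) and CML13 (-0.09). Above 0 lay CML14 (0.32), CML8 (0.24), CML11 (0.22), CML9 (0.14), CML20 (0.11) and CML28 (0.02). CML7 had the same mean level of 10.23 in mutant and in wild type leaves, with a 95% interval of -0.22 to 0.21. In all, 16 of the 26 sensors had a negative difference and 10 a positive one, whereas 11423 of 17905 genes had a positive one. In 12 sensors, or 46.2%, the groups did not overlap, against 45.6% of all genes. The mutant arrays were all higher in 5 of the 26 sensors, against 5771 of the 17905 genes (32.2%). They were all lower in 7 of the 26 sensors, against 2393 of the 17905 genes (13.4%).

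Among the kinases, CPK3 (LOC4327438) and CPK7 rose with the smallest adjusted p. CPK3 had 7.45, 7.20 and 7.24 on the mutant arrays, against 6.56, 6.61 and 6.60 on the wild type arrays. The rise was 0.70 (SE 0.09), or 1.63-fold, with limma adjusted p = 0.00144. CPK7 had 8.50, 8.16 and 8.26 in mutant leaves, against 7.61, 7.79 and 7.59 in wild type leaves, a rise of 0.64 (SE 0.11), or 1.56-fold (adjusted p = 0.00534). In both genes the groups were apart by more than the spread within either, and both calls held under all 15 alternatives.

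CPK23, whose synonym spk stands for a kinase of developing rice seed that phosphorylates sucrose synthase, rose by 0.67 (SE 0.18; adjusted p = 0.0300). It had 5.69, 5.18 and 4.97 on the mutant arrays, against 4.61, 4.75 and 4.45 on the wild type arrays, and 12 of 15 alternatives kept the call. The mutant arrays spread over 0.72 and the wild type levels are near 4.66, the median of all probe sets. CPK24, known in rice from cold tolerance, had 7.01, 6.65 and 6.68 in mutant leaves, against 6.0, 6.46 and 6.33 in wild type leaves. It rose by 0.52 (SE 0.14; adjusted p = 0.0346). CPK18 (LOC4343002), which in rice phosphorylates the MAP kinase MPK5 and holds back defence genes, had 7.86, 7.31 and 7.59 in mutant leaves, against 7.13, 7.17 and 6.98 in wild type leaves. It rose by 0.50 (SE 0.14; adjusted p = 0.0365). A second, dim probe set of CPK18 had 3.13, 2.83 and 3.20 on the mutant arrays, against 2.57, 2.61 and 2.58 on the wild type arrays, a difference of 0.46 (SE 0.12; adjusted p = 0.0402 in a fit over all probe sets). In that fit the probe set used for CPK18 had limma adjusted p = 0.0629 and did not pass. The name of the set used ends in _s_at, so it can bind related transcripts. CPK19 had 9.81, 9.74 and 9.76 in mutant leaves, against 9.60, 9.46 and 9.42 in wild type leaves. It rose by 0.28 (SE 0.08; adjusted p = 0.0361). The calls of CPK24, CPK18 and CPK19 are less firm, with 7, 8 and 6 of 15 alternatives keeping them. Of the 6 single arrays left out in turn, CPK24 kept its call without mutant replicate 2 or wild type replicate 2, CPK18 without mutant replicate 2 alone and CPK19 without wild type replicate 1 alone. CPK23 kept its call without either of mutant replicates 1 and 3 and without wild type replicate 2, and lost it without each of the other three arrays.

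The kinase that fell was CPK20 (LOC4343644). It had 9.17, 9.22 and 9.10 on the mutant arrays, against 9.44, 9.47 and 9.34 on the wild type arrays. The groups did not overlap, and the difference was -0.25 (SE 0.08; adjusted p = 0.0439), a call that 7 of 15 alternatives kept and that was lost whichever of the 6 arrays was left out.

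**Figure D2:**
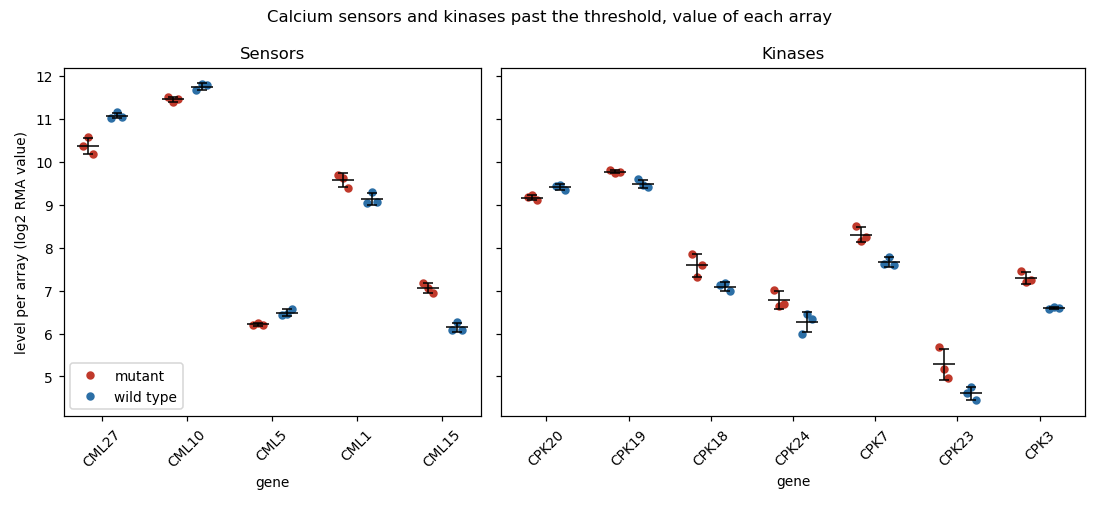
Log2 RMA level of each array for the 5 sensors and 7 kinases past the threshold, mutant left and wild type right of each position. Points are arrays, the dash and bar are the mean and SD of 3 arrays; the groups do not overlap in any of the 12 genes.

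The remaining 13 kinases did not pass. CPK8 (LOC4334519) had 10.21, 10.14 and 10.20 in mutant leaves, against 10.23, 10.13 and 10.14 in wild type leaves, with a 95% interval of the difference of -0.15 to 0.18. CPK13, which as OsCDPK7 raised the cold, salt and drought tolerance of rice when overproduced, had 10.28, 10.34 and 10.22 in mutant leaves, against 9.91, 10.08 and 10.10 in wild type leaves. Its mutant arrays were all higher, and its difference of 0.25 (SE 0.08) had an adjusted p of 0.0602. Its second probe set differed by 0.32 (SE 0.15). CPK9, known in rice from drought tolerance, had a difference of -0.25 (SE 0.10; adjusted p = 0.0900). Its groups did not overlap either, but only by a margin of 0.02. CPK4 (-0.03), CPK12 (0.16) and CPK21 (0.23), which raise salt tolerance in rice when overproduced, and CPK17 (0.18), which acts in the cold response of rice, had intervals that include 0. So had CPK6 (-0.23), CPK2 (-0.10), CPK22 (-0.02), CPK1 (0.01), CPK5 (0.21) and CPK29 (0.22). CPK2, CPK6, CPK12, CPK21, CPK22 and CPK29 lay at or below the median of all probe sets, as did CML11, CML14, CML17 and CML32. That is 10 of the 46 members (21.7%), against 20.7% of all genes. RMA values of dim probe sets understate changes.

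The highest mutant array was replicate 1 in each of the 6 kinases that rose and in both sensors that rose. Among all 3752 genes that rose it was the highest in 64.8%. Without mutant replicate 1, 4 kinases rose (CPK3, CPK7, CPK23 and CPK29) and 1 fell (CPK9), and 1 sensor rose and 5 fell, while 14.7% of all genes rose and 5.72% fell. The count of kinases that rose was also 4 without mutant replicate 2 (CPK3, CPK7, CPK18 and CPK24), where 20.3% of all genes rose. With the third mutant array left out, CPK3, CPK5, CPK7 and CPK23 rose, beside 17.4% of all genes. Leaving out wild type replicate 2 gave CPK3, CPK7, CPK23 and CPK24, beside 13.6%. CPK29 and CPK5 did not pass in the fit of all 6 arrays. These fits rest on fewer arrays and call different genes, so the equal counts do not isolate the part of mutant replicate 1. That part was not tested. Without wild type replicate 1, 3 kinases and 16.7% of all genes rose. Without wild type replicate 3, 2 kinases rose (CPK3 and CPK7), with 1 sensor up (CML15) and 1 down (CML27), while 11.9% of all genes rose and 3.19% fell. CPK3, CPK7, CML15 and CML27 were the 4 of 12 called members that kept their call in every one of the 15 alternatives.

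**Figure D3:**
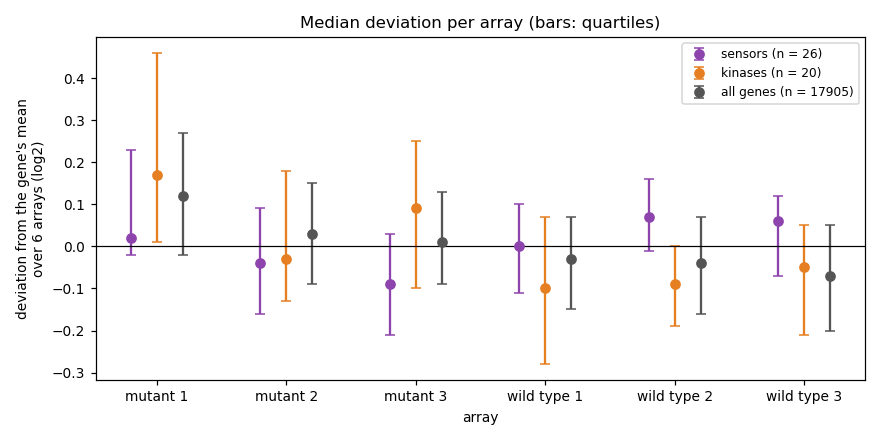
Deviation of each gene from its mean over the 6 arrays, as the median (points) and the quartiles (bars) over the 26 sensors, the 20 kinases and all 17905 genes, by array. The kinase median is 0.17, -0.03 and 0.09 on the mutant arrays, the second next to the wild type arrays at -0.10 to -0.05; the sensor median is 0.02, -0.04 and -0.09 on the mutant arrays and 0.00 to 0.07 on the wild type arrays.

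Some markers of other tissues and some cell cycle genes were higher in mutant leaves as well. Of the 10 leaf mesophyll markers 1 rose (10.0%), GLO3 by 0.81 (SE 0.15), and none fell. Of 18 panicle and flower organ genes matched by name 10 rose (55.6%) and none fell. Of 13 cell cycle genes 6 rose (46.2%) and none fell, beside 21.0% of all genes that rose and 6.32% that fell. The 13 include KRP genes, which encode inhibitors of cyclin-dependent kinases and are no markers of division. KRP6 and KRP4 are among the 6 that rose. Of the panicle list 44.4% lay at or below the median of all probe sets, and of the cell cycle list 38.5%. Among all genes it was 20.7%. The mean log2 level of the panicle list was 6.17 to 6.35 on the mutant arrays, against 5.66 to 5.72 on the wild type arrays. Its summed linear level was 8354 to 8454 on the mutant arrays, against 7966 to 8187 on the wild type arrays. The brightest genes in this sum, MADS14 at -0.10 and LOC4343851 at 0.20, did not pass. LOC4343851 is also named MADS18 and entered by the synonym MADS2. The other gene named MADS2, LOC4325001, rose by 1.02 (SE 0.13). For the cell cycle genes the sum was 1712 to 2083 on the mutant arrays, against 1630 to 1676 on the wild type arrays. The brightest genes in it were KRP1 at -0.14, which did not pass, and KRP4 at 0.32. Of 8 pollen and anther genes, 2 of which are also in the panicle list, 2 rose (25%) and none fell. One of these, LOC4327535, entered by the synonym OsCP1 and is also named cystatin. With it the summed level was 3644 to 3800 on the mutant arrays, against 2659 to 3151 on the wild type arrays. Without it, a choice made after its values were seen, 1 of 7 rose (14.3%). This was OsC4, which is also among the panicle genes that rose. The sum without LOC4327535 was 558 to 619 on the mutant arrays, against 558 to 591 on the wild type arrays, so that the groups overlap. No marker was at 0, since RMA values have no true zero. The part of these tissues in the changes of CPK and CML genes was not tested. In bulk leaf RNA, a change in the number of cells of a type and a change in RNA per cell cannot be told apart.

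The sensors and kinases belong to a wider calcium relay. CBL proteins are another class of EF-hand sensors, which act through the CIPK kinases, and of 31 CBL and CIPK genes 7 rose (22.6%) and 3 fell (9.68%), shares near those of all genes, 21.0% and 6.32%. CBL9 rose by 0.72 (SE 0.08), the kinase CIPK7 by 0.53 (SE 0.08) and CBL2 LOC4352701 by 0.49 (SE 0.08), while CBL4 fell by 0.45 (SE 0.07). CBL9 is dim, with 4.32 to 4.52 on the mutant arrays and 3.67 to 3.76 on the wild type arrays. These lie below 4.66, the median of all probe sets. The median difference of the 31 genes was 0.04. Of 11 calcium channels, pumps and exchangers matched by name 2 rose (18.2%) and none fell, which is also near the share of all genes. CAX1b, of the family that exchanges calcium for protons at the vacuole, had 5.24, 4.99 and 5.19 on the mutant arrays, against 3.90, 4.21 and 3.99 on the wild type arrays, a rise of 1.11 (SE 0.11; adjusted p = 0.000531). ACA5, of the calcium pumps that calmodulin activates in Arabidopsis, rose by 0.34 (SE 0.09; adjusted p = 0.0279).

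Of 6 genes of kinds that calmodulin or CPKs act on in plants, 3 rose and none fell, beside 21.0% and 6.32% of all genes. OsrbohB encodes an NADPH oxidase, of a kind that CPKs phosphorylate in potato, and it rose by 0.41 (SE 0.07; adjusted p = 0.00585). It had 8.93, 8.81 and 8.85 in mutant leaves, against 8.46, 8.48 and 8.41 in wild type leaves, without overlap. The phenylalanine ammonia-lyase genes PAL and PAL06 rose by 0.95 (SE 0.08) and 0.48 (SE 0.13). CCAMK, a kinase of root symbiosis that calcium and calmodulin activate, was at -0.10 and did not pass, nor did ACS1 and ACS2, which encode ACC synthases of ethylene synthesis.

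Some members lie close together in the genome. In the RefSeq table of assembly ASM3414082v1, CML9 and CAM2 are direct neighbours, and their differences of 0.14 and -0.15 both missed the threshold. CML28 and CPK29 have 5 genes between them and differed by 0.02 and 0.22, neither past the threshold. CPK2 and CML1 have 9 genes between them, and CML1 rose by 0.44 while CPK2, at -0.10, did not pass. A further 7 members of that table, CML2, CML21, CML22, CPK11, CPK14, CPK25 and CPK28, have no single-gene probe set in the annotation used and were not analysed here.

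**Figure D4:**
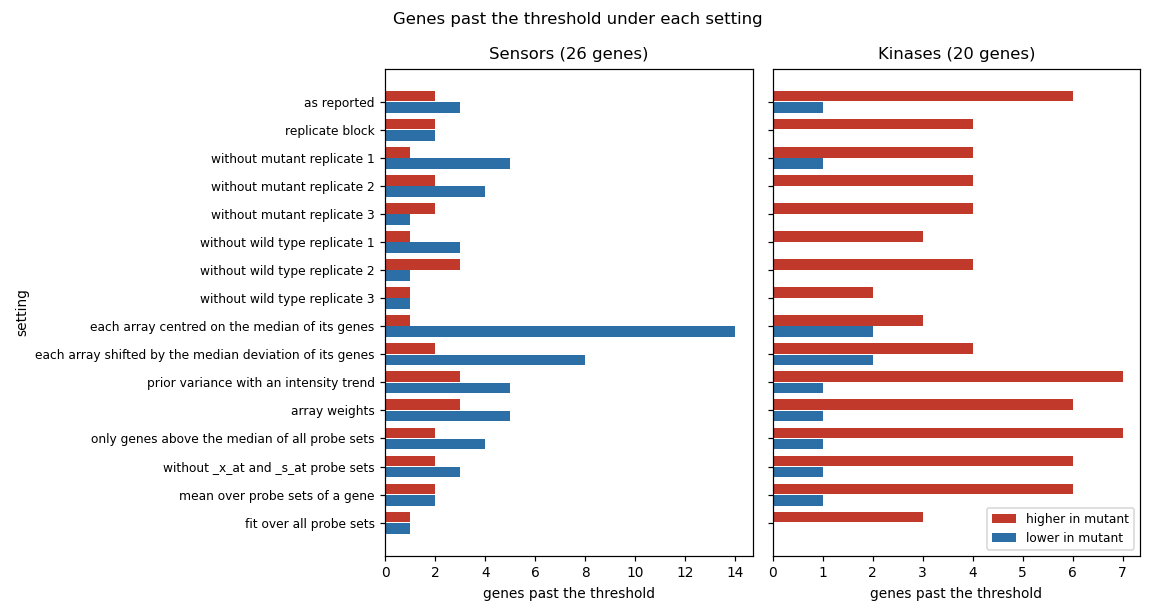
Number of sensors and kinases past the threshold, higher (red) or lower (blue) in mutant leaves, as reported (top) and under each of the 15 alternatives. Kinases called higher range from 2 to 7 and sensors called lower from 1 to 14, with 14 reached when each array is centred on its gene median.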

How the data were processed

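RNA of flag leaves was hybridised to 1 array per sample, 3 per group. Per the submitters' processing notes, the authors ran RMA in the affy package, and they deposited 1 log2 value for each probe set. Versions are not given in the sources used. RMA equalises the intensity distributions of the arrays, so differences in total RNA are removed. A shift remained over the genes tested, with medians of 7.40 to 7.60 on the mutant and 7.21 to 7.29 on the wild type arrays. Medians over all probe sets were 4.58 to 4.67 on the mutant and 4.68 to 4.72 on the wild type arrays. The log2 scale was taken from the values (1.65 to 14.5). Of 57381 probe sets, 123 controls were left out. The platform annotation names 1 gene for 22436 of the 57258 others, and all were matched to RefSeq names by Entrez identifier. Members had 54 probe sets, and 4 members are represented by a set ending in _s_at or _x_at, which can bind related transcripts.

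Groups were compared with limma 3.58.1 (R 4.3.3), with two-sided moderated tests from eBayes, Benjamini-Hochberg adjustment over all genes and a threshold of 0.05, and the procedure was tested on simulated data. The number of arrays limits precision, and an exact permutation test of 3 against 3 cannot go below p = 0.1. Replicate numbers were not taken as pairs. Alternatives were a replicate block, each array left out, other scalings, variance models, weights, filters and probe set summaries. Tables and figures used Python 3.11.15, pandas 2.3.3 and matplotlib 3.10.9.

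The members, lists and tests were chosen with earlier results of these data known. All members are named, with array values for those called and for the 3 sensors and 3 kinases with the highest mean. Up to 4 called genes of each pathway list are named. Protein and promoter features were not analysed here.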

Additional observations from a re-analysis of the deposited data

How the results depend on the processing

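Of 12 called members 4 kept their call in all 15 alternatives, and no called member changed sign. Over 677 member values, 56 lost and 40 gained a call. After centring each array on its gene median, 1 sensor rose and 14 fell, and 3 kinases rose and 2 fell, with 1804 rises and 3935 falls over all genes. With arrays shifted by the median deviation, 8 sensors and 2 kinases fell, with 2167 of all genes. Both lower the mutant arrays, so falls gain by construction. Fitted over all probe sets, 1 sensor rose and 1 fell, 3 kinases rose and 0 fell, with 2477 rises and 620 falls over all genes. With an intensity trend or with array weights 5 sensors fell, with 1466 and 1360 falls and 4499 and 4217 rises over all genes; the cause was not tested. With the replicate block 2 sensors rose and 2 fell, 4 kinases rose and 0 fell. The deviations of same-numbered arrays correlated at 0.117, 0.116 and -0.017, and not every array correlated best with its own number. With each array left out in turn, 1 to 3 sensors rose and 1 to 5 fell, 2 to 4 kinases rose and 0 to 1 fell, with 2128 to 3639 rises and 572 to 1024 falls over all genes.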
